A study of Mus musculus with 11 samples.

Results

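Small RNA was compared between 2PN (pronuclear) mouse embryos made by intracytoplasmic injection of sperm from males with a germ line conditional knockout (cKO) of Drosha and 2PN embryos made by injection of wild-type (WT) sperm. The members were the library labelled 2PN Drosha and the library labelled 2PN WT, which are 2 of the 11 libraries of the series, with 1 library a side. The labels name adult mice, backcrossed onto the C57BL/6 strain, for every library. Floxed alleles and Cre lines were combined for the knockout, and the Cre driver, the number of embryos pooled and the age in weeks are not given in the labels. Oocytes were collected from WT oviducts after superovulation, so the embryos labelled Drosha cKO had a maternal genome and cytoplasm from WT eggs, and the knockout entered through the sperm. The WT oocyte library, the 2PN Dicer cKO library (embryos made with Dicer cKO sperm), the 2 WT sperm libraries and the 3 Drosha cKO sperm libraries, from the cauda epididymis, serve here as reference values. Values of the 2 Dicer cKO sperm libraries are given beside these in a few places. These libraries hold no messenger RNA values, and so give no check that Drosha was lost.

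Drosha is the nuclear RNase III enzyme that releases miRNA hairpins from primary transcripts, and Dicer then trims each hairpin to a mature miRNA. Bases 2 to 8 of a mature miRNA, its seed, pair with target messenger RNAs. Mouse eggs carry mature miRNAs from oocyte growth, and sperm add a small amount of RNA at fertilization. In the pronuclear stage the embryonic genome is only beginning to be transcribed.

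The table listed 1592 mature miRNAs and 712 endogenous siRNAs (endo-siRNAs). The 2PN WT library held 3243 listed reads and the 2PN Drosha cKO library 8967, against 5530 in the oocyte library and 2951 in the 2PN Dicer cKO library. A count of 0 therefore allows a level of up to 0.0925% of listed reads in 2PN WT, 0.0335% in 2PN Drosha cKO and 0.102% in 2PN Dicer cKO (3 reads). Listed reads were 0.374% of the authors' library divisor in 2PN WT and 0.737% in 2PN Drosha cKO, with 0.489% in the oocyte and 0.196% in 2PN Dicer cKO. On the authors' RPM scale every ratio of the Drosha cKO to the WT embryo library is therefore 1.97 times its ratio of shares of listed reads, a shift of 0.98 on the log2 scale. What the divisor counts was not stated in any label or file header, and both scales are given for the main directions. With 1 library a side the differences have no replicate check. All intervals are 95% exact (Clopper-Pearson) intervals that cover counting error only. Reads were not marked by molecular identifiers in any label, so they are not independent molecules.

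A read was found for 388 of the 2304 features in at least 1 of the 2 libraries. At least 30 reads over both libraries were found for 25 features, all miRNAs, which held 82.8% of listed reads in 2PN WT and 91.1% in 2PN Drosha cKO. Because the 2PN Drosha cKO library was deeper, a feature reached 30 reads more easily through that library. Another 39 features had 10 to 29 reads and 324 had 1 to 9.

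The mature sequences that the results turn on are shown first, from RefSeq on GRCm38.p6, 5′ to 3′, with the seed in capitals. The table matched 22 of the 25 features. The first set holds the abundant embryo miRNAs.
miR-30c-5p: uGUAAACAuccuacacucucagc
miR-183-5p: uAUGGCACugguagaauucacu
The second set shares the seed of the miR-15/16 family, or differs from it by a shift of frame, and its members differed in direction between the libraries.
miR-195a-5p: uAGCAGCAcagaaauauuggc
miR-16-5p: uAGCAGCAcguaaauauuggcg
miR-15a-5p: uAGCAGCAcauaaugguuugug
miR-103-3p: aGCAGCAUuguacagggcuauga
The third set holds the let-7 members with at least 30 reads, which share 1 seed.
let-7f-5p: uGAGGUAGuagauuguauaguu
let-7b-5p: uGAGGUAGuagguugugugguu
let-7a-5p: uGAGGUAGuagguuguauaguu
The fourth set was higher in the 2PN Drosha cKO library.
miR-146b-5p: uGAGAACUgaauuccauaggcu
miR-146a-5p: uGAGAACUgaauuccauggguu
miR-155-5p: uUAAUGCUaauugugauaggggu
miR-106b-5p: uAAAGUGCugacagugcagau
miR-25-3p: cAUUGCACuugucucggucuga
The last set had a smaller share there, and holds miR-23a-3p, members of the embryo cluster and of the imprinted cluster, a sperm miRNA and miR-7a-1-3p; miR-7a-5p, which was not lower, is shown as the other arm of the mir-7-1 hairpin.
miR-23a-3p: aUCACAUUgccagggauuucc
miR-293-3p: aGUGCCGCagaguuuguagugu
miR-294-3p: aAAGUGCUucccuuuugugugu
miR-290a-5p: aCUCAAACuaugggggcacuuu
miR-376b-3p: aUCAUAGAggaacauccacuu
miR-19b-3p: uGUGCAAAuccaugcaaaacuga
miR-7a-1-3p: cAACAAAUcacagucugccaua
miR-7a-5p: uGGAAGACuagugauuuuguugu

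The same 3 miRNAs led both embryo libraries and held a larger part of the Drosha cKO library. miR-30c-5p, miR-183-5p and miR-195a-5p together made up 49.5% of listed reads in 2PN WT (interval 47.8 to 51.2) and 68.3% in 2PN Drosha cKO (67.3 to 69.2). The oocyte, at 60.9%, and 2PN Dicer cKO, at 60.8%, lay between them. All other features together held 50.5% of 2PN WT reads and 31.7% of 2PN Drosha cKO reads. At the depth of the shallowest of the 4 libraries, 2951 reads, the hypergeometric formula gives 162 features for 2PN Drosha cKO, 183 for 2PN Dicer cKO, 215 for the oocyte and 237 for 2PN WT.

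**Figure D1:**
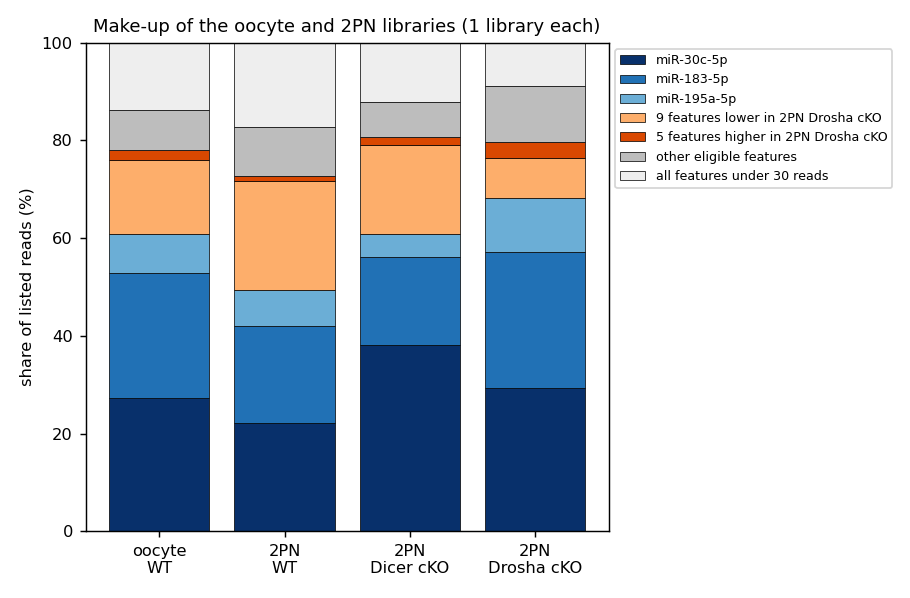
Stacked bars give the share of listed reads (%, y axis) in the oocyte and the 3 kinds of 2PN library, 1 library each, for the 3 most abundant miRNAs, the features past 2-fold in each direction and the rest. The 3 blue blocks reach 49.5% in 2PN WT and 68.3% in 2PN Drosha cKO, and the block of 9 lower features shrinks from 22.3% to 8.2%.

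miR-30c-5p, a broadly expressed member of the miR-30 family, is made from hairpins on chromosome 1 (mature at 23291714 to 23291736) and chromosome 4 (120769584 to 120769606, within the span of Nfyc), which give the same sequence. It had 717 reads in 2PN WT (22.1%, interval 20.7 to 23.6) and 2632 in 2PN Drosha cKO (29.4%, 28.4 to 30.3), a ratio of 1.33 (1.22 to 1.44). It stood at 27.3% in the oocyte and 38.2% in 2PN Dicer cKO, so the Drosha cKO value lay within the range of the other libraries. miR-183-5p, known from sensory organs and made on chromosome 6 (30169711 to 30169732), had 649 and 2493 reads, or 20% and 27.8%, a ratio of 1.39 (1.27 to 1.52). Its 27.8% lay above the 25.5% of the oocyte and the 17.9% of 2PN Dicer cKO. miR-195a-5p, a relative of miR-16 made on chromosome 11 (70235062 to 70235082), had 239 and 998 reads, or 7.37% and 11.1%, a ratio of 1.51 (1.31 to 1.75). The oocyte held 8.05% and 2PN Dicer cKO 4.71%. In RPM the ratios of these 3 miRNAs were 2.62, 2.74 and 2.98.

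Among the 25 features, 5 were at least 2-fold higher in 2PN Drosha cKO as a share of listed reads (20%) and 9 were at least 2-fold lower (36%). The interval left out a ratio of 1 for 4 of the 5 (16% of the 25) and for all 9. Each of the 5 reached 30 reads through the 2PN Drosha cKO library, with 30 to 97 reads there and 2 to 11 in 2PN WT. The intervals make no allowance for this choice of features. Of the 11 features short of 2-fold, 5 had an interval above 1 and 0 had one below it. The median log2 ratio over the 25 was 0.23 on listed reads and 1.2 in RPM. In RPM 13 of the 25 were at least 2-fold higher (52%) and 2 were at least 2-fold lower (8%). Among the 64 features with at least 10 reads, 11 were at least 2-fold higher (17.2%) and 28 at least 2-fold lower (43.8%) on listed reads. The order of the features is the same on both scales, and the counts on either side of 1 are not, since a ratio between 0.507 and 1 on listed reads lies above 1 in RPM. All 5 higher features had an RPM interval above 1, and all 9 lower features had an RPM ratio under 1, with the interval under 1 for 6 of them.

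**Figure D2:**
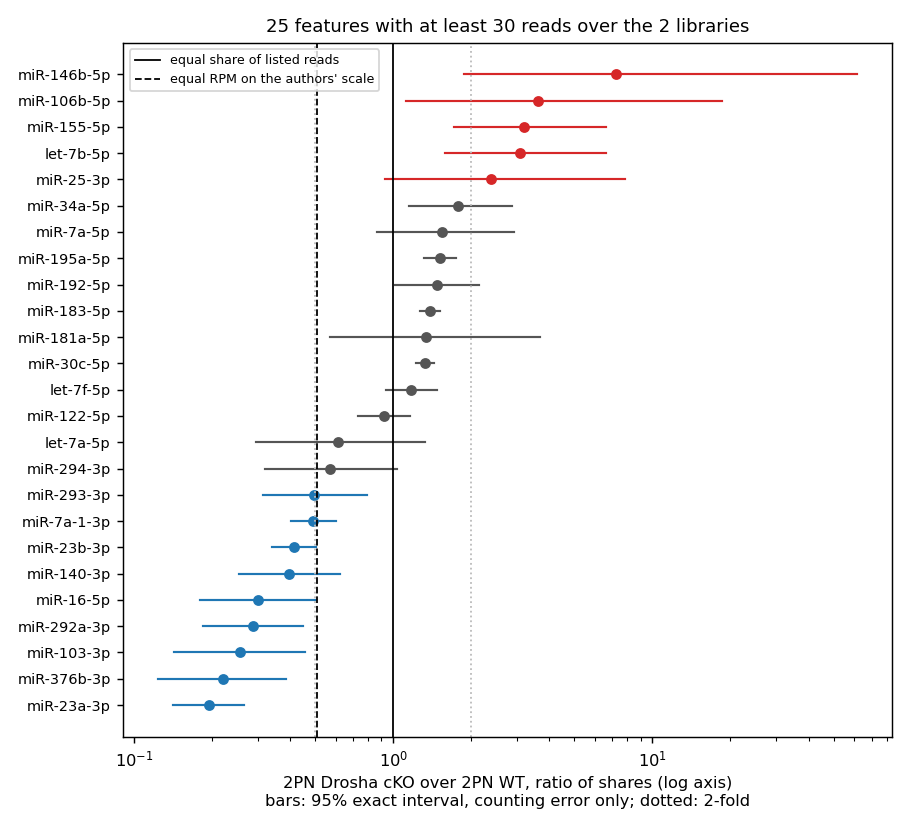
Points give the ratio of shares of listed reads, 2PN Drosha cKO over 2PN WT (log x axis), for each of the 25 features, with 95% exact intervals as bars and dotted lines at 2-fold. The solid line marks equal shares and the dashed line, at 0.507, marks equal RPM; the points of all 9 lower features lie left of the dashed line, and miR-146b-5p lies farthest right at 7.23.

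The 5 higher features were miR-155-5p, let-7b-5p, miR-146b-5p, miR-106b-5p and miR-25-3p, which together held 0.956% of listed reads in 2PN WT and 3.18% in 2PN Drosha cKO. Their sum was 2.04% in the oocyte and 1.69% in 2PN Dicer cKO. Each stood higher in 2PN Drosha cKO than in any of the other 3 libraries, and each was lower in 2PN WT than in the oocyte. The features were chosen for a high ratio of 2PN Drosha cKO to 2PN WT, so both statements follow in part from the choice. Of the 11 features short of 2-fold, 5 also stood higher in 2PN Drosha cKO than in the other 3 libraries. Against the oocyte, 2 of the 5 were at least 2-fold higher.

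miR-155-5p, an immune cell miRNA made on chromosome 16 (84714143 to 84714165), had 11 reads in 2PN WT and 97 in 2PN Drosha cKO, or 0.339% and 1.08%. The ratio was 3.19 (1.71 to 6.60), and 6.29 in RPM. The oocyte, with 53 reads, held 0.958%, so that the ratio of the Drosha cKO embryo to the oocyte was 1.13 (0.799 to 1.61). miR-155-5p supplied 95.6% of the reads of the blood cell list in both libraries together. Of the list's 12 members, 1 had a read in 2PN WT and 5 in 2PN Drosha cKO, and the red cell miRNA miR-451a had 0 and 1 read. The summed list, at 0.339% and 1.14% (ratio 3.35, 1.80 to 6.93), therefore describes miR-155-5p.

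let-7b-5p, of the family that is abundant in differentiated cells, is made on chromosome 15 (85707325 to 85707346, within the span of Lncppara). It had 10 and 85 reads, or 0.308% and 0.948%, a ratio of 3.07 (1.59 to 6.64), and 6.06 in RPM. Its ratio to the oocyte, which had 23 reads, was 2.28 (1.42 to 3.79). Its sequence relatives among the 25 features fell short of 2-fold on listed reads. let-7f-5p, with 103 and 333 reads, had a ratio of 1.17 (0.935 to 1.47), and 2.3 (1.84 to 2.9) in RPM, which is past 2-fold. let-7a-5p, with 13 and 22 reads, had a ratio of 0.612 (0.295 to 1.32), and 1.21 in RPM. Of 23 listed let-7 members 19 had a read in either library. Among the 25 features were 3, of which 1 was higher, against 20% of all 25. The family's sum was 4.96% in 2PN WT and 5.72% in 2PN Drosha cKO, a ratio of 1.15 (0.964 to 1.38), and 2.27 in RPM. Members differ by as little as 1 base, and how reads that fit several members were counted is not stated, so reads may be split among them.

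miR-146b-5p, induced in immune signalling and made on chromosome 19 (46342790 to 46342811, within the span of Gm36493), had 2 reads in 2PN WT, 40 in 2PN Drosha cKO, 15 in the oocyte and 12 in 2PN Dicer cKO. Its ratio of 7.23 (1.88 to 61.8) rests on the 2 WT reads. The ratio to the oocyte was 1.64 (0.889 to 3.20). miR-146a-5p, which shares its seed and was looked up after its values were seen, had 0 reads in 2PN WT and 13 in 2PN Drosha cKO, and was at least 1.57-fold higher with 2PN WT set at 3 reads, or 1.1-fold at the lower limit of the exact interval. For miR-146b-5p the WT embryo library stood below the oocyte and the cKO embryo libraries. For miR-146a-5p its count of 0 allows up to 0.0925%, above the oocyte at 0.0723% and 2PN Dicer cKO at 0.0678%. Whether 2PN WT was the lowest for miR-146a-5p therefore cannot be told.

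miR-106b-5p and miR-25-3p come from 1 cluster on chromosome 5 within the span of Mcm7, a replication gene (mature at 138165787 to 138165807 and 138165332 to 138165353). miR-106b-5p had 3 reads in 2PN WT and 30 in 2PN Drosha cKO, a ratio of 3.62 (1.12 to 18.5). miR-25-3p had 5 and 33 reads, a ratio of 2.39 (0.926 to 7.83), whose interval holds 1. The third member, miR-93-5p, had 0 and 2 reads, which is under the depth needed for a ratio. In sperm the cluster's members went apart: miR-106b-5p stood at 0.0545% and 0.0685% of listed reads in WT and at 0.151% to 0.242% in Drosha cKO libraries, whereas miR-25-3p stood at 0.111% and 0.154% in WT and 0.0167% to 0.0327% in Drosha cKO.

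**Figure D3:**
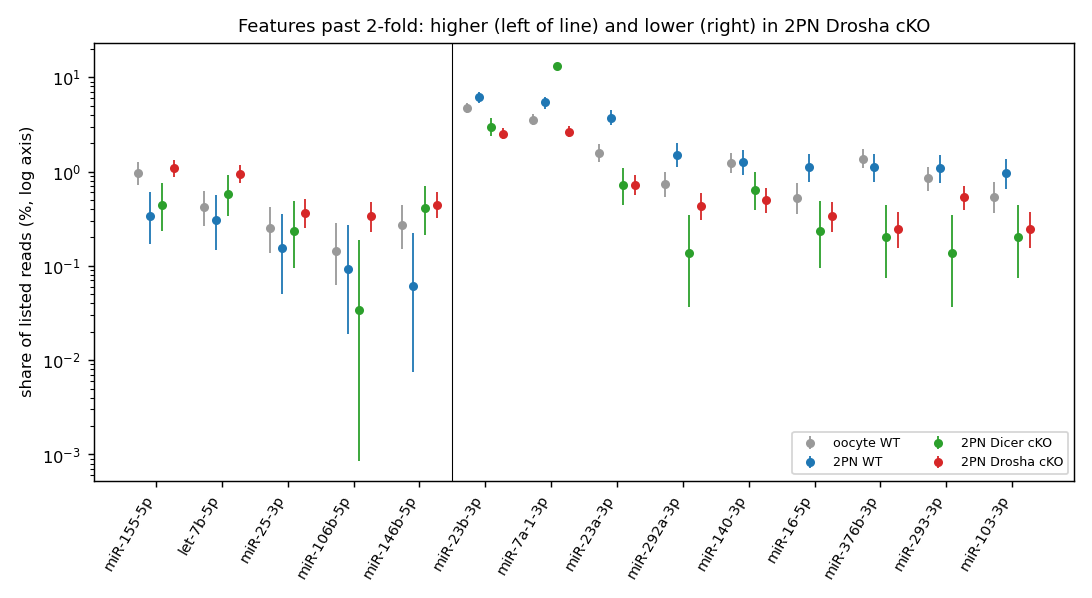
Points give the share of listed reads (%, log y axis) of the features past 2-fold in the oocyte and 2PN libraries, with 95% exact intervals, 5 higher features at the left and 9 lower ones at the right. Among the lower features the 2PN WT point is the highest of the 4 for 7 of the 9, and the 2PN Drosha cKO point is the lowest for 3. The features were chosen on the 2PN WT and 2PN Drosha cKO values.

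The 9 lower features were miR-23a-3p, miR-376b-3p, miR-103-3p, miR-292a-3p, miR-16-5p, miR-140-3p, miR-23b-3p, miR-7a-1-3p and miR-293-3p. Together they held 22.3% of listed reads in 2PN WT, 15.1% in the oocyte, 18.3% in 2PN Dicer cKO and 8.2% in 2PN Drosha cKO. All 9 were also lower in 2PN Drosha cKO than in the oocyte, 4 of them at least 2-fold, and 8 were higher in 2PN WT than in the oocyte. The 9 were chosen for a low ratio of 2PN Drosha cKO to 2PN WT, so these counts follow in part from the choice. Against 2PN Dicer cKO, which shares the WT control, 3 of the 9 were lower. The WT embryo library was the highest of the 4 for 7 features, and miR-23b-3p, miR-7a-1-3p and miR-140-3p were lowest in 2PN Drosha cKO. Of the 11 features short of 2-fold, 2 were highest in 2PN WT and 0 were lowest in 2PN Drosha cKO.

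miR-23a-3p and miR-23b-3p, which share a seed and are transcribed with miR-27 and miR-24, formed the largest block. miR-23a-3p, from chromosome 8 (84208563 to 84208583), had 121 reads in 2PN WT and 65 in 2PN Drosha cKO, or 3.73% (3.11 to 4.44) and 0.725% (0.560 to 0.923). It was 5.15-fold lower (3.78 to 7.07), and its RPM ratio was 0.383 (0.279 to 0.522). The oocyte held 1.57% and 2PN Dicer cKO 0.712%, so the 2 cKO embryo libraries stood near each other, below the oocyte, and the WT embryo library above it. miR-23b-3p had 198 and 226 reads, or 6.11% and 2.52%, and was 2.42-fold lower (1.99 to 2.94), with an RPM ratio of 0.814 (0.669 to 0.990). The list of miR-23, miR-27 and miR-24, in which 5 of 11 members had a read in either library, summed to 9.93% and 3.32%, 2.99-fold lower (2.54 to 3.51). Both of its members among the 25 features were lower, against 36% of all 25. miR-27a-3p had 2 reads in each library and miR-27b-3p 0 and 4.

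The miR-290 cluster on chromosome 7, a marker of the early embryo and of pluripotent cells, separated egg and embryo libraries from sperm and cannot tell an embryo from an oocyte. It held 4.84% (4.13 to 5.64) of listed reads in 2PN WT, 3.42% in the oocyte, 1.55% (1.30 to 1.83) in 2PN Drosha cKO and 0.542% in 2PN Dicer cKO, against at most 0.0668% in any WT or Drosha cKO sperm library. The sum was 3.12-fold lower (2.47 to 3.95) in 2PN Drosha cKO than in 2PN WT, with an RPM ratio of 0.631. Of 17 listed members, 13 had a read in 2PN WT and 10 in 2PN Drosha cKO. Among the 25 features were 3, of which 2 were lower, against 36% of all 25. miR-292a-3p had 49 and 39 reads, or 1.51% and 0.435%, and was 3.47-fold lower (2.23 to 5.43), with an RPM ratio of 0.567 (0.363 to 0.882). miR-293-3p (chromosome 7, 3220390 to 3220411, within the spans of Nlrp12 and D7Ertd143e) had 35 and 48 reads and was 2.02-fold lower (1.27 to 3.18), with an RPM ratio of 0.978. miR-294-3p, with 21 and 33 reads, had a ratio of 0.568 (0.319 to 1.03), short of 2-fold, and 1.12 in RPM.

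Among the cluster's members under 30 reads, miR-290a-5p had 18 reads in 2PN WT, 14 in the oocyte, 2 in 2PN Drosha cKO and 0 in 2PN Dicer cKO. The ratio of the 2 reads to the 18 was 0.0402 (0.00452 to 0.168), and 0.0792 in RPM. miR-294-5p had 8 and 5 reads and miR-295-3p 7 and 5. These members were looked up after their values were seen.

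miR-376b-3p, from the imprinted Dlk1-Dio3 cluster on chromosome 12 (109723508 to 109723528), which is expressed from the maternal allele, had 36 reads in 2PN WT and 22 in 2PN Drosha cKO. The shares were 1.11% and 0.245%, 4.52-fold lower (2.59 to 8.07), with an RPM ratio of 0.436 (0.244 to 0.761). The oocyte had 76 reads (1.37%) and 2PN Dicer cKO 6 (0.203%). It was all but missing from sperm, with 1 read in 1 WT library and 0 in the 3 Drosha cKO libraries. The neighbouring miR-376a-3p had 13 and 8 reads and was 4.49-fold lower (1.73 to 12.5). The whole cluster had a read for 24 of 77 members in either library. It held 2.25% of listed reads in 2PN WT and 0.636% in 2PN Drosha cKO, 3.54-fold lower (2.47 to 5.10), with an RPM ratio of 0.557. Without miR-376b-3p the ratio was 0.342 (0.209 to 0.558), whose interval holds 0.507, the ratio at equal RPM.

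miR-16-5p and miR-103-3p, which WT sperm also hold, were lower in the embryos made with Drosha cKO sperm. miR-16-5p, a restraint on the cell cycle made on chromosome 3 (69009918 to 69009939, within the span of Smc4) and chromosome 14 (61631936 to 61631957, within Dleu2), had 36 reads in 2PN WT and 30 in 2PN Drosha cKO. It was 3.32-fold lower (1.99 to 5.58), with an RPM ratio of 0.594 (0.353 to 0.992). Its shares were 1.11% in 2PN WT, 0.524% in the oocyte, 0.237% in 2PN Dicer cKO and 0.335% in 2PN Drosha cKO. Its ratio of 2PN Drosha cKO to the oocyte was 0.638 (0.370 to 1.10), whose interval holds 1. In sperm it held 2.96% and 6.49% of WT reads and 0.908% to 1.38% of Drosha cKO reads. miR-195a-5p has the same seed and a ratio of 1.51, so that the family's sum followed miR-195a-5p, which held 90.7% of its reads: 8.88% in 2PN WT and 12% in 2PN Drosha cKO. Without it the family's ratio was 0.576 (0.398 to 0.841). Equal RPM is at a ratio of 0.507, so this remainder lies above 1 in RPM, with an interval that holds 1. miR-15a-5p, encoded beside the chromosome 14 copy of miR-16, had 5 and 24 reads, a ratio of 1.74 (0.649 to 5.83).

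miR-103-3p, made within Pank2 and Pank3, genes of coenzyme A synthesis, had 31 reads in 2PN WT and 22 in 2PN Drosha cKO. It was 3.90-fold lower (2.18 to 7.06), with an RPM ratio of 0.506 (0.279 to 0.902). Its shares were 0.956% in 2PN WT, 0.542% in the oocyte, 0.203% in 2PN Dicer cKO and 0.245% in 2PN Drosha cKO, and in sperm 0.587% and 0.957% in WT against 0.392% to 0.572% in Drosha cKO. miR-140-3p, a cartilage miRNA within the span of Wwp2 on chromosome 8 (107551288 to 107551308), had 41 and 45 reads, 2.52-fold lower (1.61 to 3.93), with an RPM ratio of 0.782 (0.501 to 1.23). Of the 9 lower features, 4 were also lower in every Drosha cKO sperm library than in every WT sperm library, 2 were higher there and 3 overlapped. Of the 5 higher features, 2 were higher in all Drosha cKO sperm libraries, 1 was lower and 2 overlapped. Over all 25 features, 11 were higher in every Drosha cKO sperm library (44%), 7 were lower (28%) and 7 overlapped. Among the 325 features of the table with at least 30 reads over the 5 sperm libraries, 40.3% were higher and 33.8% lower. The 2 of 5 is near these shares, and the 4 of 9 rests on few features.

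The 2 arms of the mir-7-1 hairpin on chromosome 13, within the span of Hnrnpk, differed in their ratios. miR-7a-1-3p (58392800 to 58392821) had 175 reads in 2PN WT and 238 in 2PN Drosha cKO, or 5.4% and 2.65%, and was 2.03-fold lower (1.66 to 2.48). In RPM its ratio was 0.97 (0.794 to 1.19), so the libraries were level on that scale. miR-7a-5p (58392841 to 58392863), whose sequence also comes from a second hairpin on chromosome 7, had 15 and 64 reads, a ratio of 1.54 (0.869 to 2.92), and 3.04 (1.71 to 5.75) in RPM. The share of each arm within the hairpin is the same on both scales. The 3p arm made up 92.1% of the reads of both arms in 2PN WT (87.3 to 95.5), 93.4% in the oocyte, 96.7% in 2PN Dicer cKO and 78.8% in 2PN Drosha cKO (73.8 to 83.3). The 2PN Drosha cKO share lay below those of the other egg and embryo libraries and above those of sperm. The 3p share was 47.8% and 20.8% in WT sperm, 2.83% to 12.2% in Drosha cKO sperm, and 11.7% and 6.36% in Dicer cKO sperm. The let-7b hairpin, looked up after its values were seen, showed a like difference. Its 3p arm made up 47.4% of both arms in 2PN WT (24.4 to 71.1; 9 of 19 reads), 47.7% in the oocyte, 59.5% in 2PN Dicer cKO and 12.4% in 2PN Drosha cKO (6.56 to 20.6; 12 of 97 reads). It was low in all sperm libraries, at 1.43% and 5.56% in WT, 3.27% to 14.8% in Drosha cKO and 2.79% and 5.92% in Dicer cKO. For mir-15a and mir-294 the intervals of the WT and Drosha cKO embryo libraries overlapped, so whether they shared this difference cannot be told. The 3p share of mir-15a was 50% in 2PN WT (18.7 to 81.3), on 5 reads of each arm, and 40% in 2PN Drosha cKO (24.9 to 56.7). That of mir-294 was larger in 2PN Drosha cKO, at 86.8% (71.9 to 95.6) against 72.4% in 2PN WT (52.8 to 87.3), with intervals that overlap.

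The next question was whether miRNAs with a larger share in sperm than in eggs were lower in embryos made with Drosha cKO sperm. Features with at least 10 times the oocyte level in both WT sperm libraries numbered 27, of which 17 had a read in the oocyte, and they held 67.5% and 66.2% of WT sperm reads. The 2PN libraries took no part in their choice. They held 0.904% of listed reads in the oocyte (0.672 to 1.19), 2.07% in 2PN WT (1.60 to 2.62; 67 reads), 1.12% in 2PN Dicer cKO (0.771 to 1.57) and 0.993% in 2PN Drosha cKO (0.798 to 1.22; 89 reads). The rule used the oocyte values, which lowers the oocyte share by choice, so the oocyte is given as a description and the embryo libraries are compared with each other. The ratio of 2PN Drosha cKO to 2PN WT was 0.480 (0.346 to 0.670), and 0.947 in RPM.

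Within these, 11 features had a lowest WT sperm level at least 4 times their highest Drosha cKO sperm level. They held 36.5% and 38.3% of WT sperm reads and 4.04% to 5.4% of Drosha cKO sperm reads. In the embryos they held 0.894% in 2PN WT (0.600 to 1.28; 29 reads) and 0.178% in 2PN Drosha cKO (0.102 to 0.290; 16 reads), 5.01-fold lower (2.63 to 9.88), with an RPM ratio of 0.393. The oocyte stood at 0.380% (0.235 to 0.580). The 2PN Dicer cKO library stood near the oocyte, at 0.407% (0.210 to 0.709; 12 reads), while Dicer cKO sperm held 3.4% and 3.18%. The difference rested on few reads and few features. Without its leading features by reads, miR-34b-3p and miR-19b-3p, 6 reads were left in each library, with a ratio of 0.362 (0.0967 to 1.35).

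**Figure D4:**
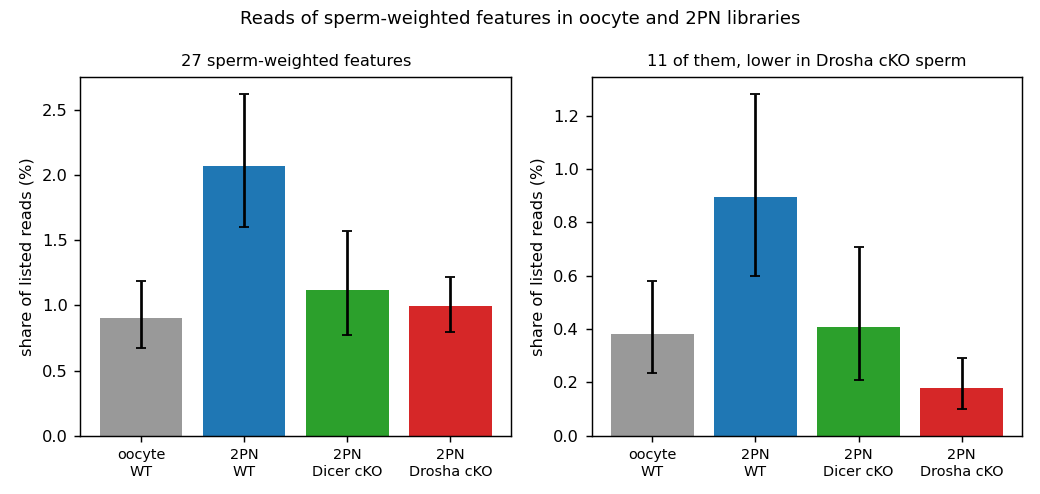
Bars give the share of listed reads (%, y axis from 0) in the oocyte and 2PN libraries, 1 each, of the 27 features weighted to WT sperm (left) and of the 11 that were also lower in Drosha cKO sperm (right), with 95% exact intervals. The 2PN WT bars, at 2.07% and 0.894%, are the highest in both panels, and the 2PN Drosha cKO bar at the right is the lowest at 0.178%.

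miR-19b-3p, of the miR-17-92 cluster of dividing cells, had the lowest ratio of the features with at least 10 reads. It made up 9.14% and 10.1% of WT sperm reads and 1.53% to 1.70% of Drosha cKO sperm reads. It had 2 reads in the oocyte, 14 in 2PN WT (0.432%, 0.236 to 0.723), 0 in 2PN Dicer cKO and 1 in 2PN Drosha cKO (0.0112%, 0.000282 to 0.0621). The ratio of the 1 read to the 14 was 0.0258 (0.000611 to 0.170), and 0.0509 in RPM. Its cluster partner miR-19a-3p had 0 reads in the oocyte, 4 in 2PN WT, 0 in 2PN Dicer cKO and 3 in 2PN Drosha cKO. miR-17-3p had 7 and 3 reads and miR-92a-3p 5 and 3, looked up after their values were seen. The miR-17-92 and paralog list as a whole had 12 of 28 members found in either library. It summed to 1.26% and 0.914%, a ratio of 0.723 (0.491 to 1.08), and 1.43 in RPM, since it also holds miR-25-3p and miR-106b-5p. These, its 2 members among the 25 features, were both higher, against 20% of all 25.

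Other miRNAs that mark male germ cells gave few reads in the embryos, apart from miR-34a-5p. The miR-34 and miR-449 family, at 18.2% and 16.3% of WT sperm reads and 1.76% to 2.91% of Drosha cKO sperm reads, held 1.17% in 2PN WT and 1.49% in 2PN Drosha cKO, a ratio of 1.28 (0.884 to 1.88). This sum followed miR-34a-5p, a p53 target widely expressed in somatic cells, with 25 and 123 reads and 86% of the family's reads (ratio 1.78, 1.15 to 2.86). The other members had 13 reads in 2PN WT and 11 in 2PN Drosha cKO, a ratio of 0.306 (0.124 to 0.740). That interval holds 0.507, the ratio at equal RPM. The largest of these other members, miR-34b-3p, had 11 reads in the oocyte, 9 in 2PN WT and 9 in 2PN Drosha cKO, and miR-34c-5p had 1 in each of these 3. The X-linked testis miRNAs had 8 and 10 reads over 37 members (ratio 0.452, 0.161 to 1.32). The families miR-297, miR-466, miR-467 and miR-669, most of which lie in an intron of Sfmbt2, had 27 and 33 reads over 70 members, 2.26-fold lower (1.31 to 3.88), with an RPM ratio of 0.871 and 0.904% in the oocyte.

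Of the 712 endo-siRNAs, 6 had a read in 2PN WT and 4 in 2PN Drosha cKO, with 6 and 4 reads in all and a ratio of 0.241 (0.0500 to 1.02). The miRNAs made without Drosha's complex, such as miR-320 and miR-484, had 13 and 8 reads over 11 members, 4.49-fold lower (1.73 to 12.5), with an RPM ratio of 0.439. miR-320-3p had 6 and 5 of these reads, and miR-484 3 and 0. miRNAs numbered 5000 and above, many of them supported by few reads where they were described, summed to 2.10% in 2PN WT and 1.24% in 2PN Drosha cKO, a ratio of 0.590 (0.433 to 0.811) on listed reads and 1.16 in RPM. miR-5119 had 1 and 26 reads, a ratio of 9.40 (1.54 to 386).

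Of the markers of other tissues, the epithelial, stromal and miR-29 lists gave few reads, and the liver miRNA miR-122-5p many. The epithelial miR-200 and miR-141 family, which held 11.5% to 14.3% of Drosha cKO sperm reads, had 2 reads in 2PN WT and 4 in 2PN Drosha cKO (0.0617% and 0.0446%). Stromal miRNAs had 14 reads in each library, a ratio of 0.362 (0.160 to 0.818), and the list of miR-10, miR-125 and their relatives had 8 and 18, a ratio of 0.814 (0.337 to 2.16), and 1.6 in RPM. The miR-29 family, at 6.75% to 9.51% of Drosha cKO sperm reads, had 2 reads and 1. The part of these tissues in the results was not tested. miR-122-5p, a liver miRNA, was at 3.27% in 2PN WT, 3% in 2PN Drosha cKO and 2.19% in the oocyte, against at most 0.00991% in the WT and Drosha cKO sperm libraries. Its ratio of 0.918 (0.730 to 1.16) differed from 1 by less than counting error on listed reads, and was 1.81 (1.44 to 2.29) in RPM. miR-192-5p, a gut and kidney miRNA, stood at 1.17% and 1.72%, a ratio of 1.47 (1.02 to 2.15). miR-191-5p, abundant in sperm, had 5 and 22 reads, a ratio of 1.59 (0.588 to 5.38).

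**Figure D5:**
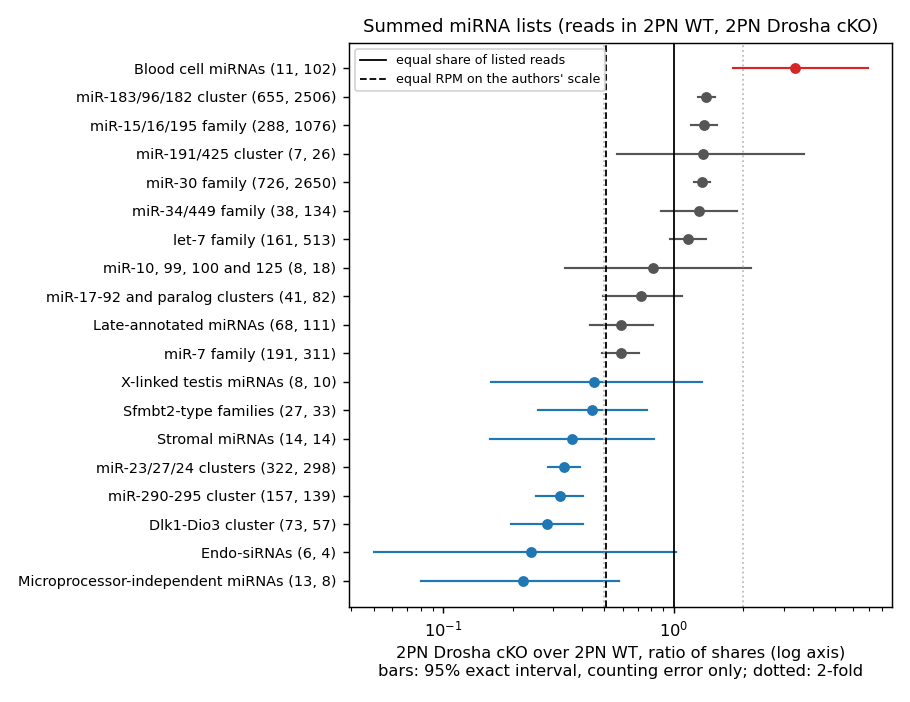
Points give the ratio of summed shares, 2PN Drosha cKO over 2PN WT (log x axis), for each list with at least 10 reads over both libraries, with 95% exact intervals and with the reads of each library in brackets. The miR-30, miR-183 and miR-15/16 lists sit between 1.32 and 1.38, and the embryo, imprinted and miR-23 lists lie at 0.282 to 0.335, left of the dashed line of equal RPM.

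Across the whole profile, the shares that 2PN WT and 2PN Drosha cKO had in common (the smaller of the 2 shares, summed over features) came to 73.4%. The oocyte had 84.1% in common with 2PN Drosha cKO and 80.3% with 2PN WT, and the 2 cKO embryo libraries had 71.8% in common. By this measure the Drosha cKO embryo library lay nearer to the oocyte library than to the WT embryo library. The same held for 2PN WT, which had 80.3% in common with the oocyte, 73.4% with 2PN Drosha cKO and 67.5% with 2PN Dicer cKO. Libraries differ in depth and have no replicate, so how far 2 WT embryo libraries would differ cannot be told from these data.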

How the data were processed

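Small RNA libraries were read from a table of raw read counts and a table of RPM values, both deposited by the authors. The counts, as deposited, are whole reads per mature miRNA or endo-siRNA. Each RPM value the authors deposited is the count divided by 1 whole number per library (867112 in 2PN WT, 1216312 in 2PN Drosha cKO), times a constant. Bowtie and mm10 are named in the submitters' processing notes; versions, the rule for counting and the source of the siRNA set: not given in the sources used here. The series text names Ion Torrent Proton and duplicates, whereas the labels give an Illumina library protocol and 1 library per kind of embryo.

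Shares used listed reads. Ratios carry exact conditional intervals from scipy 1.17.1, and a library at 0 reads entered at 3. Interval coverage was checked on simulated Poisson counts for a fixed set of features. That check holds no spread between libraries, no duplicate reads and no choice of features by reads or ratio. No test was run, since each side has 1 library. TMM factors came from edgeR 4.0.16 under R 4.3.3. Features needed 30 reads over both libraries. Named were the 12 most abundant, up to 10 past 2-fold per direction, ordered by the interval bound nearest 1, and up to 3 members of each of 21 lists with at least 10 reads; others are marked as chosen after their values were seen, or are named to fill out a list. Members and lists were chosen with earlier results of these data known. Sequences and positions came from RefSeq tables on GRCm38, the same assembly as mm10.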

Additional observations from a re-analysis of the deposited data

Results flagged for a closer look

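Flagged were 3 of the 25 features and 5 of the 21 lists. Each was past 2-fold in the embryo comparison in one direction on listed reads. Every Drosha cKO sperm library stood on the other side of every WT sperm library. Over all 25 features, 5 were past 2-fold higher and 9 lower in the embryo. In sperm 11 of the 25 were higher in every Drosha cKO library and 7 lower. The same counts over the 21 lists are not given. The 5 flagged lists are therefore not shown to exceed what the list directions alone would give. In no case was the difference between sperm and embryo itself tested. miR-23a-3p was lower in 2PN Drosha cKO (ratio 0.194) and higher in Drosha cKO sperm (0.208% to 0.465% of listed reads, against 0.115% and 0.134% in WT). miR-23b-3p did the same (ratio 0.413; 0.126% to 0.167% against 0.104% and 0.113%), and so did the list of miR-23, miR-27 and miR-24 (ratio 0.335; 1.02% to 1.65% against 0.507% and 0.546%). The 0.126% of miR-23b-3p rests on 20 reads. The Dlk1-Dio3 cluster had a ratio of 0.282 in the embryo and 0.460% to 0.758% in Drosha cKO sperm against 0.181% and 0.184%. Stromal miRNAs had a ratio of 0.362 in the embryo, on 14 reads in each library, and 1.15% to 1.79% in Drosha cKO sperm against 0.343% and 0.861%. miR-25-3p went the other way, with a ratio of 2.39 in the embryo, whose interval holds 1, and 0.0167% to 0.0327% in Drosha cKO sperm against 0.111% and 0.154%.
Endo-siRNAs had a ratio of 0.241 in the embryo, on 6 and 4 reads with an interval that holds 1, and 3.88% to 5.39% in Drosha cKO sperm against 0.542% and 2.6%. The miR-29 family had a ratio of 0.181 on 2 reads and 1 read, with an interval of 0.00307 to 3.47, and 6.75% to 9.51% in Drosha cKO sperm against 2.61% and 2.73%. In RPM the embryo ratios of miR-23a-3p (0.383), miR-25-3p (4.71), endo-siRNAs (0.475) and the miR-29 family (0.356) stayed past 2-fold. Those of miR-23b-3p (0.814), its list (0.66), the Dlk1-Dio3 cluster (0.557) and stromal miRNAs (0.713) fell short of 2-fold.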

How the results depend on the processing

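The counts past 2-fold depend on the scaling. The 5 higher and 9 lower features became 13 and 2 with the authors' RPM, 13 and 2 with a TMM factor, and 12 and 5 when the 3 most abundant features were left out of the total, an alternative chosen after seeing the data. With at least 10 reads the counts were 11 and 28 of 64 features, and with at least 100 reads 1 and 3 of 11. They stayed within 1.5 times with miRNA reads only, without the most abundant feature, with the median of ratios, and with an interval that leaves out 1. With the oocyte in place of 2PN WT, also chosen after seeing the data, 4 features were higher and 8 lower of 31. With the TMM factor 2 lower features crossed to the other side of 1 or reached it, miR-293-3p at 1.01 and miR-7a-1-3p at 1. With 4 times the oocyte level in place of 10, the sperm-weighted share was 3.82% in 2PN WT and 1.90% in 2PN Drosha cKO. No paired analysis was possible because each side has 1 library. Depth limits the rest: in 2PN WT 1 read is a large part of any feature named under 10 reads, and the sperm-weighted results rest on 67 and 89 reads.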
